A study of Mus musculus with 30 samples.

Results

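The 10 core genes of the circadian clock, Per1, Per2, Per3, Cry1, Cry2, Arntl, Clock, Nr1d1, Nr1d2 and Dbp, were taken by name from the gene counts of mouse hippocampus, and all 10 were found among the 17477 genes of the table. RNA was sequenced from the hippocampus of 30 adult C57 BL/6J mice, 8 socially isolated (SI) and 7 group-housed (GH) females and 7 SI and 8 GH males, with 1 library per mouse. SI mice had lived singly from weaning until death, while GH mice had lived with cage mates over the same period, and no genetic change or other treatment is named for either group. The mice came from an earlier behavioural study by the same authors, which covered anxiety, sociability and cognition. When that testing took place is not given in the sources used here. Which GH mice shared a cage is not given in the sources used here, nor is the hour at which each mouse was killed. The question was whether SI and GH mice differed in clock gene expression, and how the clock genes varied together from mouse to mouse.

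The clock is a feedback loop of transcription that runs with a period of about a day in most cells. CLOCK and BMAL1, the protein of Arntl, bind E-boxes as a pair and activate the Per and Cry genes, whose proteins then inhibit that pair. CLOCK and BMAL1 also drive Nr1d1 and Nr1d2, which encode the nuclear receptors REV-ERBα and REV-ERBβ, and these repress Arntl at sites shared with the activating ROR receptors. Dbp encodes a transcription factor that is driven through E-boxes, binds D-boxes and passes the rhythm on to other genes. In the hippocampus, clock genes cycle and have been tied to memory, which makes a level from a single time point depend on when tissue was taken.

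Total counts ranged from 18809307 to 100844898 per library, and the lowest count of a clock gene in any mouse was 163, for Per2. The median total was lower in SI males, at 25609585, than in GH males, at 49542256. In females it was 43484444 in SI and 39728004 in GH mice. All 6 markers of hippocampal neurons examined (Prox1, Wfs1, Neurod6, Fibcd1, C1ql2 and Spink8) had counts in every mouse. SI males 25, 33 and 39 stood apart from the other 12 males on the first principal component, which held 59.1% of the male variance, and main male values below are also given without them. Levels are in CPM, the counts scaled by the normalized library size to a common total. In whole tissue, fewer cells of a type and less RNA per cell cannot be told apart. A Log2FC is the fitted log2 difference of SI minus GH with surrogate variables in the model, with its standard error (SE), and calls are genes with an adjusted p under 0.05 in edgeR's quasi-likelihood test, where the adjustment by Benjamini-Hochberg ran over all genes tested.

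Promoter stretches of 7 clock genes are shown because they carry the short motifs through which the loop is known to act. They come from RefSeq windows on GRCm38.p6 that run from 250 bases before to 50 bases after an annotated start, and 9 of the 10 genes, all but Per2, were matched to a window. Each stretch is written 5′ to 3′ on the strand of the gene, with matches in capitals. The motifs were searched on both strands. The E-box was CACGTG. Its variant, the E-prime box, was CACGTT and shows on the opposite strand as AACGTG. The D-box was TTATGTAA. The core of the ROR element was AGGTCA and shows on the opposite strand as TGACCT. None of these words holds another of them.
Per1, + strand, window chr11:69098699-69098998, E-box and ROR core: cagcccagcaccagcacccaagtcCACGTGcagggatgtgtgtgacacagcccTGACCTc
Cry1, − strand, window chr10:85185005-85185304, E-prime box and E-box: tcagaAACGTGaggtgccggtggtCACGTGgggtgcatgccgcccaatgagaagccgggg
Cry2, − strand, window chr2:92434020-92434319, E-prime box: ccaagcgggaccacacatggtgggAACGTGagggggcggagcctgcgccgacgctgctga
Nr1d1, − strand, window chr11:98775328-98775627, E-prime box: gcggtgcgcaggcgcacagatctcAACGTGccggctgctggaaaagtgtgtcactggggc
Per3, − strand, window chr4:151044616-151044915, D-box: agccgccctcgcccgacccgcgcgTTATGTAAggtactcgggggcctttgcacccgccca
Arntl, + strand, window chr7:113207261-113207560, ROR core: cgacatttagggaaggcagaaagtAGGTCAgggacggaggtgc
Nr1d2, − strand, window chr14:18239057-18239356, ROR core: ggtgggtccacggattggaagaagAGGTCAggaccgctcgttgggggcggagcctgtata

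The E-box was found in 2 of the 9 matched genes, Per1 and Cry1, and in 8.09% of all 27025 genes with a window. An E-prime box was found in Cry1, Cry2 and Nr1d1 and in 5.44% of all genes. The D-box stood 2 times in the Per3 window and in 1.11% of all genes. The ROR core was found in Per1, Arntl, Nr1d2 and Clock and in 18.1% of all genes. The cyclic AMP response element TGACGTCA was in 0 of the 9 genes and in 2.03% of all genes. These are matches of letters in short windows and do not show that a factor binds there. A window without a match says only that these letters are not in it, as for Dbp, whose window chr7:45704997-45705296 held none of the 5 motifs.

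Per kilobase of the longest coding transcript, the clock genes spanned a 15-fold range of mean level in the 15 GH mice. Dbp was highest at 53.5 ± 20.7 CPM per kb (SD, n = 15), followed by Nr1d1 at 37.5 ± 5.0 and Cry2 at 33.1 ± 2.50. Nr1d2 and Per1 lay in the middle at 15.4 ± 2.51 and 13.1 ± 2.45. Clock (6.89 ± 0.710) and Arntl (6.61 ± 1.26) were lower, and Cry1 (4.66 ± 0.446), Per3 (3.66 ± 0.488) and Per2 (3.55 ± 0.629) were lowest. Within this order the ranges of neighbours overlapped except between Cry2, whose lowest mouse was at 29.9 CPM per kb, and Nr1d2, whose highest was at 19.1, and between Per1, lowest at 10.01, and Clock, highest at 8.09. The plot of each library's levels shows the same genes by group.

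**Figure D1:**
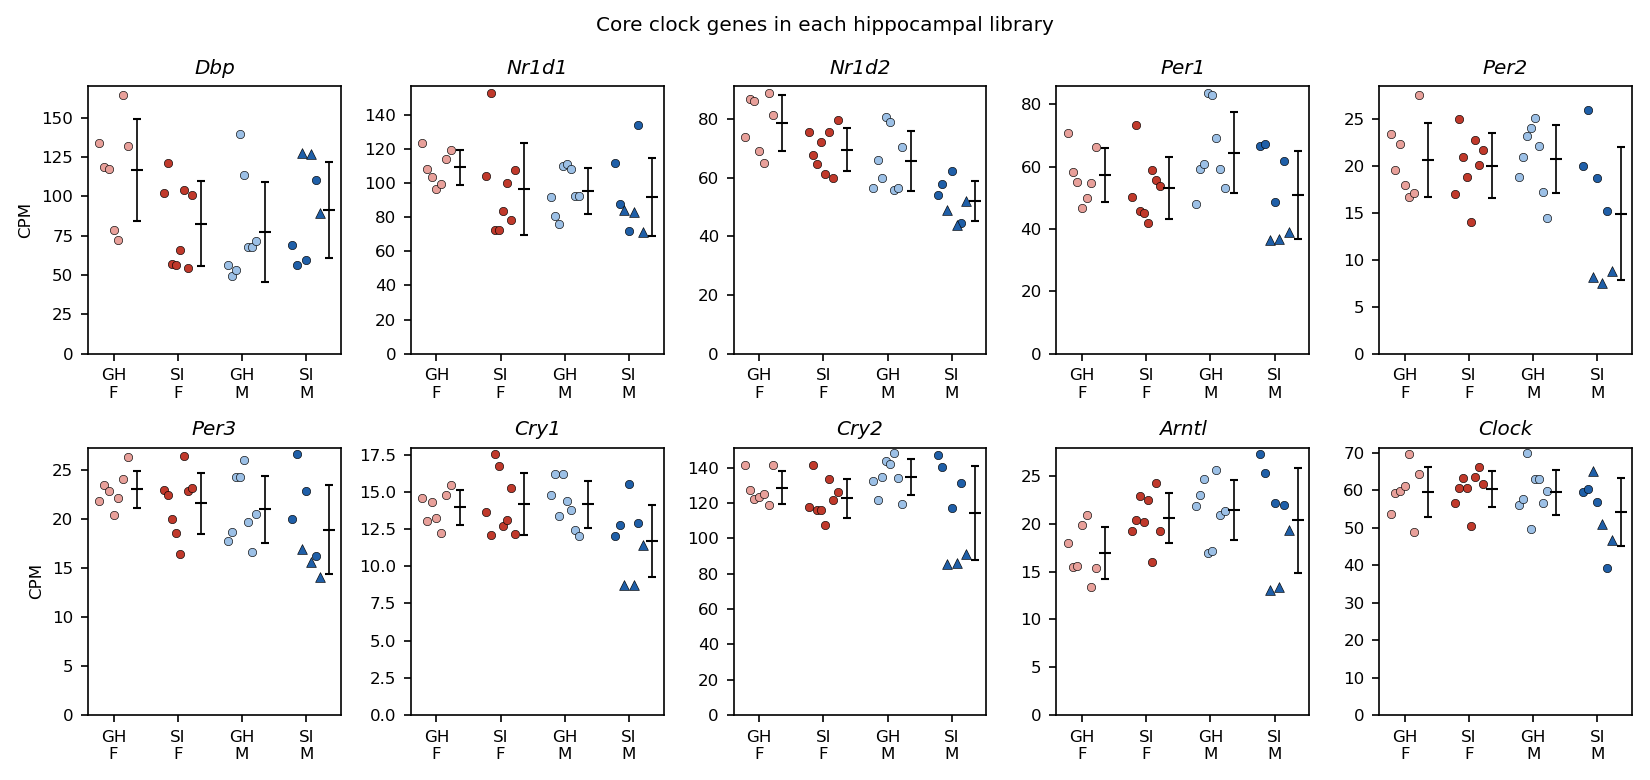
Level of each clock gene in CPM (y axis, from 0) in every library, by housing (GH or SI) and sex (F, female, n = 7 GH and 8 SI; M, male, n = 8 GH and 7 SI). Each point is a mouse, triangles are SI males 25, 33 and 39, and the bar beside each group is its mean ± SD. The groups overlap for all 10 genes, and the 3 triangles lie below every other male for Per1, Per2, Cry1 and Cry2.

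In females, 0 of the 10 clock genes were called between SI and GH mice, against 3.89% of the 16026 genes tested. At an unadjusted p under 0.05 there were 3 of 10, Dbp and Nr1d1 with negative and Arntl with positive Log2FC, where 20.2% of all genes tested were at that level. The median Log2FC of the 10 was -0.0675, beside 0.00773 over all genes. The share at the unadjusted threshold was thus near that of the background.

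Dbp (ENSMUSG00000059824, chr7:52960458-52965525 on NCBIM37), the D-box binding output gene, had the Log2FC farthest from 0 in females. Its level was 54.1 CPM in the lowest SI female, 83.2 at the median and 121 in the highest, and 72.2, 119 and 164 CPM in GH females. Of 8 SI females 4 lay below the lowest GH female, and of 7 GH females 3 lay above the highest SI female, so the groups overlapped. The means were 82.5 ± 26.9 (SD, n = 8) and 117 ± 32.2 CPM (SD, n = 7), and the Log2FC was -0.52 ± 0.179 (SE) with an adjusted p of 0.110 by edgeR. The call turned on single mice: without SI 45, the highest SI female, the Log2FC was -0.63 with an adjusted p of 0.0457, and without GH 71, the lowest GH female, it was -0.73 with 0.0239. In the other direction it was -0.35 without GH 78 (adjusted p = 0.280 by edgeR) and -0.37 without SI 52 (0.311). With 1 female left out, calls over all genes ranged from 88 to 1373, beside 624 with none left out. An adjusted p in such a fit depends on that count as well as on the gene, also for the genes below.

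Arntl (ENSMUSG00000055116, chr7:120350979-120457636), whose protein BMAL1 is the partner of CLOCK, stood on the other side. It was at 15.97, 20.3 and 24.2 CPM in the lowest, median and highest SI female and at 13.4, 15.6 and 20.9 CPM in GH females. Of 8 SI females 3 lay above the highest GH female, and of 7 GH females 4 lay below the lowest SI female. The means were 20.6 ± 2.61 and 16.9 ± 2.71 CPM, and the Log2FC of 0.26 ± 0.0971 had an adjusted p of 0.133 by edgeR. With limma-voom and quality weights, the Log2FC was 0.33 with an adjusted p of 0.0338. Clock (ENSMUSG00000029238, chr5:76639992-76733817), the other member of the activating pair, was at 60.4 ± 4.87 CPM in SI and 59.6 ± 6.80 CPM in GH females, with a Log2FC of 0.05 ± 0.0363.

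The REV-ERB genes, repressors of Arntl, both had negative Log2FC in females. Nr1d1 (ENSMUSG00000020889, chr11:98629246-98636647) was at 72.3, 91.8 and 153 CPM in the lowest, median and highest SI female and at 96.7, 108 and 124 CPM in GH females. Of 8 SI females 4 were below every GH female, while SI 45 was above all of them. The Log2FC was -0.25 ± 0.102 with an adjusted p of 0.185 by edgeR, and without SI 45 it was -0.33 with 0.0259. Without SI 52 it was -0.13 (adjusted p = 0.604 by edgeR) and without GH 78 -0.16 (0.438). Nr1d2 (ENSMUSG00000021775, chr14:19036568-19071641) was at 69.5 ± 7.33 CPM in SI and 78.7 ± 9.53 CPM in GH females, with a Log2FC of -0.15 ± 0.0786 and an adjusted p of 0.290 by edgeR. For Nr1d2, 3 of 8 SI females lay below the lowest GH female and 4 of 7 GH females above the highest SI female.

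The Per and Cry genes, which encode the inhibitors of CLOCK and BMAL1, were closer together between the female groups. Per1 (ENSMUSG00000020893, chr11:68908719-68923462) was at 53.1 ± 10.1 CPM in SI and 57.4 ± 8.60 CPM in GH females, with a Log2FC of -0.13 ± 0.0600 and an adjusted p of 0.247 by edgeR. Cry2 (ENSMUSG00000068742, chr2:92243803-92274200) was at 123 ± 10.8 and 129 ± 9.35 CPM, with a Log2FC of -0.07 ± 0.0367. Per3 (ENSMUSG00000028957, chr4:150377761-150418774) and Cry1 (ENSMUSG00000020038, chr10:84594447-84647799) had Log2FC of -0.07 ± 0.0769 and 0.05 ± 0.0855. Per2 (ENSMUSG00000055866, chr1:93312561-93355907) was at 20.1 ± 3.44 and 20.7 ± 3.97 CPM, and its Log2FC of 0.00477 ± 0.0728 had a 95% interval from -0.138 to 0.147. With at least 10 counts required in every sample, Per1 and Dbp were called in females, with Log2FC of -0.18 and -0.61 and adjusted p of 0.0459 and 0.0469 by edgeR.

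**Figure D2:**
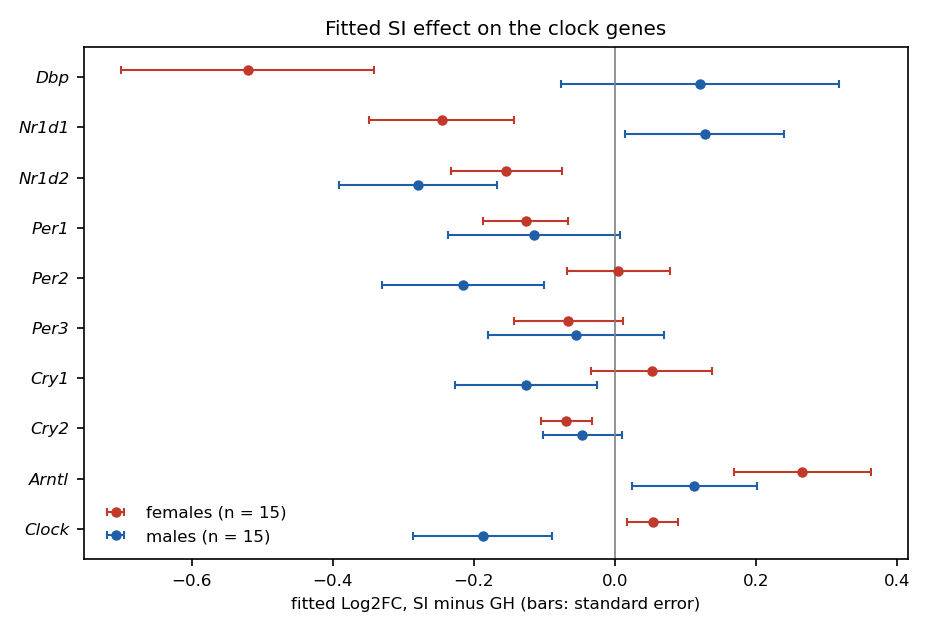
Fitted Log2FC of SI minus GH (x axis, log2 scale) for each clock gene in 15 females (red) and 15 males (blue), with bars of 1 standard error. Dbp and Nr1d1 lie left of 0 in females and right of 0 in males, where the male side turns with the processing, and Nr1d2 lies left of 0 in both sexes.

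In males, 0 of the 10 were called, as were 0 (0%) of the 15833 genes tested. At an unadjusted p under 0.05 there was 1 of 10, Nr1d2, beside 13.0% of all genes. The median Log2FC of the clock genes was -0.0854, and that of all genes was -0.00197. Nr1d2 was at 43.8, 52.1 and 62.4 CPM in the lowest, median and highest SI male and at 55.8, 62.99 and 80.6 CPM in GH males. Of 7 SI males 5 lay below the lowest GH male, and of 8 GH males 4 lay above the highest SI male. Its Log2FC was -0.28 ± 0.112 with an adjusted p of 0.343 by edgeR, and without SI 27, the highest SI male for this gene, it was -0.36 with an adjusted p of 0.0443. Without that mouse 2414 genes were called in all. Without SI 38 the Log2FC of Nr1d2 was -0.14 (adjusted p = 0.9995 by edgeR), and without SI 25, 33 and 39 it was -0.23 ± 0.130.

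Dbp in males was at 56.5, 89.2 and 127 CPM in the lowest, median and highest SI mouse and at 49.5, 67.7 and 139 CPM in GH mice. No SI male lay outside the GH range, and the Log2FC of 0.12 ± 0.197 had a 95% interval from -0.265 to 0.507. Arntl and Nr1d1 had Log2FC of 0.11 ± 0.0883 and 0.13 ± 0.112, and the sign of all 3 of these genes turned under another processing of the male data. Per2 and Clock had Log2FC of -0.22 ± 0.115 and -0.19 ± 0.0985, with adjusted p of 0.423 and 0.414 by edgeR. Without SI 25, 33 and 39 these were -0.11 ± 0.140 and -0.11 ± 0.0533, and without SI 38 they were -0.11 and -0.08.

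SI males 25, 33 and 39 carried most of the low Per and Cry levels among SI males. Per2 was at 7.58 to 8.80 CPM in these 3 mice, 15.2 to 26.0 CPM in the other 4 SI males and 14.5 to 25.2 CPM in the 8 GH males. Per1 was at 36.4 to 39.1 CPM in the 3, against at least 48.6 CPM in the other SI males and 48.1 CPM in GH males. Cry2 was at 85.2 to 91.1 CPM in the 3 and at 117 to 147 CPM in the other 4. Cry1 was at 8.71 to 11.4 CPM, also below all other males, whereas Dbp, at 89.2 to 127 CPM, and Clock were within the range of the others. Arntl, at 13.1 to 19.3 CPM, was below the other 4 SI males but overlapped the GH males. The 3 mice thus lay below all 12 other males in 4 of the 10 genes and above them in 0. Over the 15833 genes tested in males, they lay below all others in 25.6% and above all others in 24.4%. Without them, 0 of 10 genes were called, and the Log2FC was -0.06 for Per1, 0.02 for Cry2, 0.17 for Arntl, 0.16 for Nr1d1 and 0.05 for Dbp.

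The test of the difference between the sexes, an interaction of sex and housing over all 30 mice, called 0 of the 10 genes and 0.00610% of 16391 genes tested. At an unadjusted p under 0.05 it held 0 of 10, beside 7.03% of all genes. For Dbp the SI effect was 0.42 ± 0.318 higher in males than in females on the log2 scale, with a 95% interval from -0.202 to 1.04 and an adjusted p of 0.816 by edgeR. The opposite signs of Dbp in females and males were therefore not shown to differ.

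Of 27 other genes of the clock pathway, 0 were called in females and 0 in males. At an unadjusted p under 0.05 there were 8 of 27 in females, 3 positive and 5 negative, beside 20.2% of all genes, and 9 of 27 in males, 3 positive and 6 negative, beside 13.0%. Calls made up 3.89% of all genes in females and 0% in males. Among 5 activators and partners, Npas2, which can stand in for CLOCK in the brain, had the smallest p in both sexes. Npas2 was at 23.03 ± 2.30 CPM in SI and 27.1 ± 3.17 CPM in GH females, with a Log2FC of -0.21 ± 0.0605 and an adjusted p of 0.0573 by edgeR. In males it was at 21.2 ± 5.78 and 27.8 ± 2.06 CPM, with a Log2FC of -0.21 ± 0.0644 and an adjusted p of 0.3001. In each sex 4 SI mice lay below the lowest GH mouse, and 3 of the 4 males were SI 25, 33 and 39. Without these 3 the male Log2FC of Npas2 was -0.16 ± 0.0709 with an adjusted p of 0.742 by edgeR. As a test between the sexes, the interaction of sex and housing was -0.07 ± 0.100 for Npas2. The female Log2FC passed the threshold without GH 46, SI 41 or SI 45, with adjusted p of 0.0483, 0.0419 and 0.0403 by edgeR, and the male one without SI 27 (0.024). Without GH 46 the female Log2FC was -0.202, beside -0.214 with all females, so that call did not come from a larger difference. Calls over all genes ranged from 88 to 1373 with 1 female left out, beside 624, and numbered 2414 without SI male 27.

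Among 7 other repressors, Nfil3, which encodes E4BP4, a repressor that competes with DBP for D-boxes, was closest to a call in females. It was at 7.98, 10.4 and 12.7 CPM in the lowest, median and highest SI female and at 6.65, 7.84 and 8.71 CPM in GH females. Of 8 SI females 6 lay above the highest GH female. The Log2FC was 0.40 ± 0.110 with an adjusted p of 0.0512 by edgeR, while DESeq2 with the same surrogate variables gave 0.40 and 0.00857. With edgeR the threshold was passed without GH 46 (adjusted p = 0.0211), GH 47 (0.0484), SI 41 (0.0424), SI 63 (0.0490) or SI 73 (0.0468). Without GH 47 the unadjusted p by edgeR was 0.00220, beside 0.00203 with all females. In males Nfil3 had a Log2FC of 0.00362 ± 0.0840. Timeless, which has a role in DNA replication and an uncertain one in the mammalian clock, had the smallest p of this group in males, with a Log2FC of 0.28 ± 0.0997 and an adjusted p of 0.319 by edgeR, and 0.26 ± 0.0934 without SI 25, 33 and 39.

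Of 10 kinases, ubiquitin ligases and a deubiquitinase that set the stability of clock proteins, Fbxl21, a partner of CRY proteins, had the smallest p in females, with a Log2FC of -0.18 ± 0.129. Usp2, a deubiquitinase whose gene is itself rhythmic, was at 100 ± 28.9 CPM in SI and 66.3 ± 9.59 CPM in GH males, with a Log2FC of 0.41 ± 0.111 and an adjusted p of 0.295 by edgeR. For Usp2, 5 of 7 SI males lay above the highest GH male. Among 5 output genes, Hlf and Tef, the relatives of Dbp in the PAR bZIP family, had Log2FC of -0.09 ± 0.0385 and -0.10 ± 0.0413 in females. In males Tef had a Log2FC of -0.19 ± 0.0707 and an adjusted p of 0.330, and Hlf had one of -0.10 ± 0.0618. Without SI 27 the male adjusted p by edgeR were 0.00453 for Usp2, 0.0184 for Tef and 0.0412 for Hlf, again with 2414 calls over all genes. Without SI 25, 33 and 39 the male Log2FC was 0.39 ± 0.113 for Usp2, -0.17 ± 0.0714 for Tef and -0.036 ± 0.0673 for Hlf, with adjusted p of 0.742, 0.742 and 0.883 by edgeR.

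The clock genes differed widely in how far mice of 1 group varied. The biological coefficient of variation, the spread between mice beyond counting noise in a model with housing alone, was 0.272 for Dbp in females. This lay at the 93.8th percentile of all genes, whose median was 0.120. Cry2 in females was at 0.0925 and Clock at 0.1005, both below the median gene. Dbp varied 2.23-fold between the lowest and highest SI female, 2.27-fold between GH females and 2.82-fold between GH males.

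Co-variation was measured on the log2 CPM of each mouse as its deviation from the mean of its housing group, in 15 females and in the 12 males other than SI 25, 33 and 39. Dbp, as an output of the loop, served as the reference, and every other gene was tested for a slope on it with edgeR, with housing in the model. In females 0 of the 9 other clock genes were called, beside 0.0187% of 16025 genes, and 5 of 9 were at an unadjusted p under 0.05, beside 6.31%. In males 0 of 9 were called, beside 0.0123% of 16240 genes, and 4 of 9 were at an unadjusted p under 0.05, beside 8.61%. In these mice Nr1d1 and Per1 had positive and Arntl had negative slopes at that level in both sexes, joined by Nr1d2 and Per3 with positive slopes in females and Clock with a negative slope in males. With all 15 males only Arntl of the 9 was at that level, at -0.49 ± 0.111 (adjusted p = 0.109 by edgeR), beside 31.7% of 15832 genes, and the slopes were 0.23 ± 0.132 for Nr1d1, 0.05 ± 0.170 for Per1 and -0.13 ± 0.104 for Clock.

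Nr1d1 had the smallest p of a slope on Dbp among the clock genes in females and in the 12 males. Its slope was 0.53 ± 0.0927 log2 units per log2 unit of Dbp in females (adjusted p = 0.0699 by edgeR) and 0.43 ± 0.107 in males (adjusted p = 0.327). Pearson's r was 0.841 in 15 females (permutation p = 3e-05) and Spearman's rho was 0.814 (permutation p = 0.00105). In the 12 males r was 0.770 (permutation p = 0.00162) and rho 0.825 (permutation p = 0.00099), and without the 2 mice farthest from the median r was 0.872 in females and 0.786 in males. In females the slope passed the threshold without GH 71 (adjusted p = 0.0428 by edgeR) or without GH 78 (0.0203). With all 15 males, r was 0.433, beside -0.796 for Arntl with Dbp.

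The slope of Arntl on Dbp had the opposite sign. It was -0.35 ± 0.0820 in females (adjusted p = 0.492 by edgeR) and -0.30 ± 0.0886 in males (adjusted p = 0.424). Pearson's r was -0.780 (permutation p = 0.00089) and rho -0.714 (permutation p = 0.00302) in females, and r was -0.781 (permutation p = 0.00826) and rho -0.685 (permutation p = 0.0259) in males. Without the 2 farthest mice r was -0.730 in females and -0.467 in males, so that the male relation rested in part on these mice, and with all 15 males it was -0.796. Single mice show it: GH 78 had the highest Dbp (164 CPM) and the lowest Arntl (13.4 CPM) of the GH females, and GH 71 had the lowest Dbp (72.2 CPM) and the highest Arntl (20.9 CPM). Among GH males, GH 15 and GH 16 had the 2 highest levels of Dbp, 139 and 113 CPM, and the 2 lowest of Arntl, 16.9 and 17.2 CPM.

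Ciart, which encodes a repressor of CLOCK and BMAL1 and was 1 of the 27 other pathway genes, ranked first by p of all genes in both sexes. It was at 4.23 to 10.6 CPM in SI females, 5.14 to 12.4 in GH females, 6.02 to 8.63 in SI males and 4.73 to 13.6 in GH males. Its slope on Dbp was 1.0 ± 0.117 in females (adjusted p = 0.00145 by edgeR) and 0.92 ± 0.0984 in males (adjusted p = 0.00183). Pearson's r was 0.922 (permutation p = 1e-05, the smallest these permutations can give) in females and 0.954 (permutation p = 0.00019) in males, with rho of 0.854 and 0.916 (permutation p = 0.00019 and 0.00034). Without the 2 farthest mice r was 0.908 and 0.888. The male call was lost without GH 15, where the slope was 0.85 with an adjusted p of 0.171 by edgeR, and with all 15 males the slope was 0.72 with 0.0449.

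**Figure D3:**
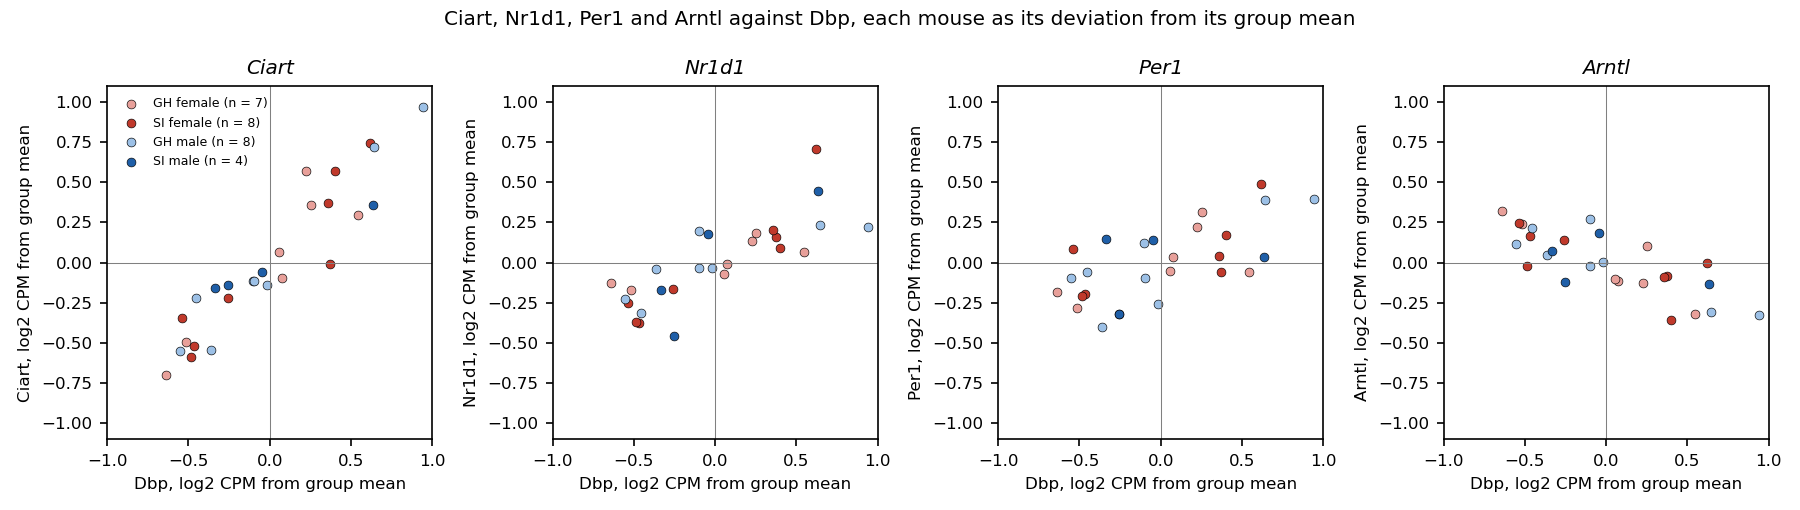
Deviation of each mouse from the mean of its group in log2 CPM for Dbp (x axis) and for Ciart, Nr1d1, Per1 and Arntl (y axes), in 15 females and 12 males, without SI males 25, 33 and 39. Points of the 4 groups run upward for Ciart and Nr1d1 and downward for Arntl, with r of 0.922, 0.841 and -0.780 in females and 0.954, 0.770 and -0.781 in males.

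Besides Ciart, the genes called on Dbp, named after their values were seen, were Mab21l2 (slope -2.93 ± 0.367, adjusted p = 0.00245) and Tcfap2b (slope -2.77 ± 0.447, adjusted p = 0.0437) in females and ENSMUSG00000114277, which had no symbol, in males (slope 1.32 ± 0.168, adjusted p = 0.00904), all by edgeR. Mab21l2 and Tcfap2b were scarce, with an average log2 CPM of -0.79 and -0.32. Bhlhe41, which encodes the repressor DEC2, had slopes of 0.30 ± 0.0595 in females and 0.35 ± 0.0599 in males, with adjusted p of 0.202 and 0.0755 by edgeR. Nfil3 had slopes of -0.29 ± 0.106 and -0.21 ± 0.0872, opposite in sign to those of Nr1d1 and Ciart in both sexes.

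Over the 45 pairs of clock genes, a set of 6 targets of CLOCK and BMAL1, Per1, Per2, Per3, Nr1d1, Nr1d2 and Dbp, chosen without Cry1 and Cry2, correlated positively with each other in 15 of 15 pairs in females. The median r of these pairs was 0.589, from 0.247 to 0.841. In the 12 males it was 0.41, with 12 of 15 pairs positive and a range from -0.280 to 0.770. Arntl correlated negatively with all 6 targets in both sets, with a median r of -0.492 in females and -0.326 in males. With all 15 males the median of Arntl with the targets was 0.179 and 5 of 6 were positive, so the direction in males rested on leaving out SI 25, 33 and 39. With Cry1 and Cry2 added, a choice made after the values were seen, 23 of 28 pairs were positive in females (median r 0.501, lowest -0.555, of Cry1 with Nr1d1), 22 in the 12 males (median 0.369) and 23 in all 15 males (median 0.468). The points of these correlations share libraries, depth and tissue composition, and no p is given for the medians.

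The closest pairs in females were not all with Dbp. Arntl and Nr1d2, the repressed gene and a repressor, had an r of -0.905 (permutation p = 3e-05) and a rho of -0.850 (permutation p = 0.00034), and r was -0.920 without the 2 farthest mice. In the 12 males the same pair had an r of -0.585 (permutation p = 0.0634) and a rho of -0.469 (permutation p = 0.146), falling to -0.138 without the 2 farthest. With all 15 males r was 0.0058 (permutation p = 0.984) and rho 0.00357 (permutation p = 0.995), so the inverse relation was absent there. Per1 and Cry2, both of the negative limb, had an r of 0.918 in females (permutation p = 3e-05; rho 0.907, permutation p = 6e-05; 0.849 without the 2 farthest) and 0.755 in males (permutation p = 0.00648; rho 0.825, permutation p = 0.0024; 0.759 without the 2 farthest). In females and in the 12 males, Cry1 went with few of the others, with an r of -0.295 with Dbp and -0.160 with Per1 in females and 0.0900 and 0.0485 in males. With all 15 males these were -0.374 and 0.569. In that set r of Cry1 was 0.761 with Per2 (permutation p = 0.00509) and 0.629 with Cry2 (permutation p = 0.0589). The p-values of pairs are unadjusted for the 45 pairs, and the edgeR slopes above carry the adjustment over all genes.

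**Figure D4:**
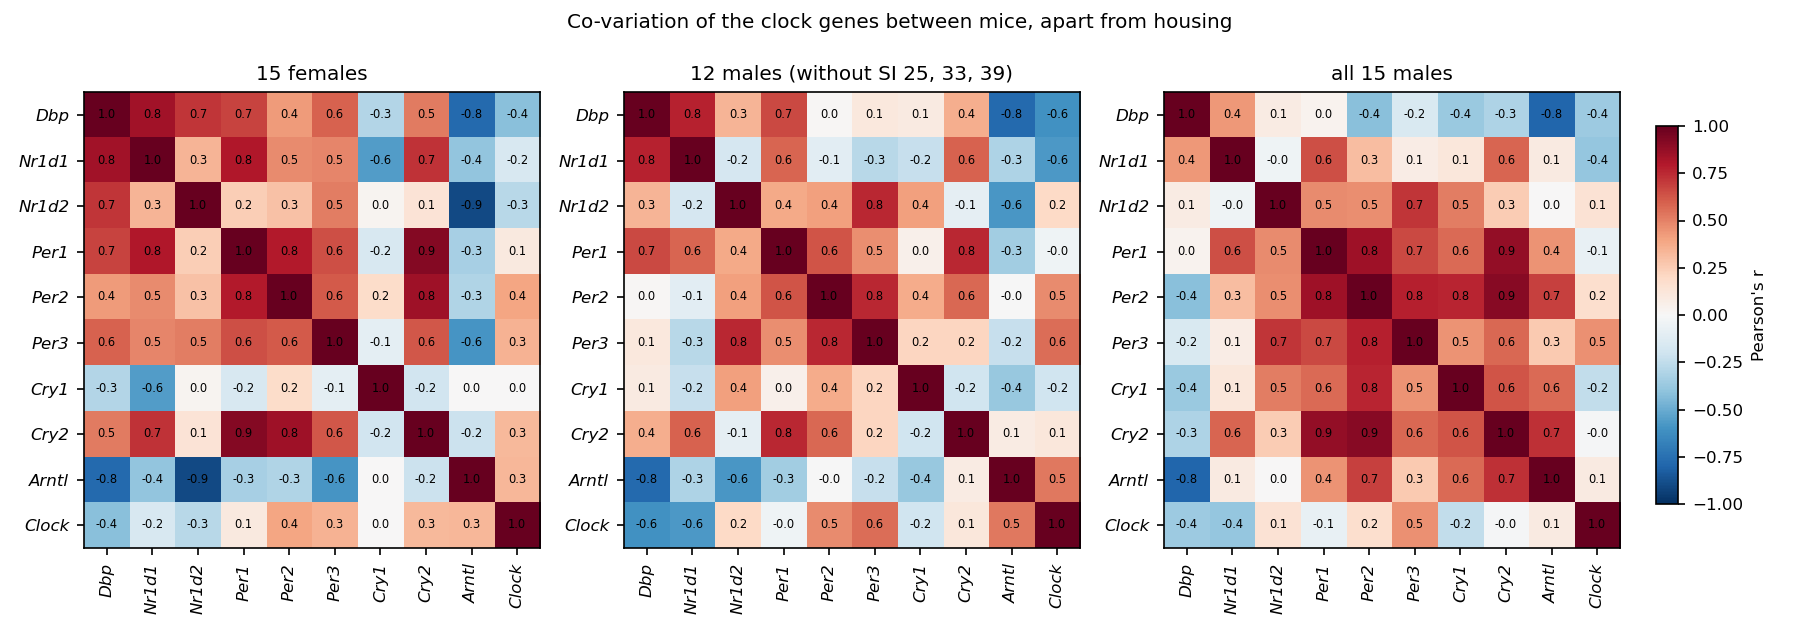
Pearson's r (color, from -1 to 1, value in each cell) between the clock genes over 15 females, 12 males without SI 25, 33 and 39, and all 15 males, after each group's mean was removed. In the first 2 panels the Arntl row is blue against Dbp (-0.780 and -0.781), while in the third panel Arntl turns red with Per2 (0.680) and Cry2 (0.727).

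The surrogate variables held different shares of the clock genes' spread within housing groups. In females they held 88.0% for Clock, 80.9% for Cry2 and 77.0% for Per1, but 34.0% for Dbp, 12.4% for Arntl and 11.4% for Nr1d2, beside a median of 56.3% over all genes. In all 15 males they held 90.7% for Cry2, 84.9% for Per2 and 77.8% for Arntl, but 6.91% for Nr1d2. The fitted Log2FC of Cry2, Clock and Per1 in females thus had most of the spread between mice removed, and those of Arntl and Nr1d2 little of it. With surrogate variables added to the slopes on Dbp in females, Arntl and Nr1d2 were called, at -0.47 and 0.37. The main slopes left these variables out because they may hold the variation in question. The share of all genes called with them added is not given here, so these calls have no background beside them.

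The genes whose levels went most closely with the clock targets in both sexes were ranked by r with the mean of the 6 targets' scaled deviations, among 15760 genes, over 15 females and 12 males. Ciart was first on the positive side, with r of 0.922 in females and 0.848 in males. Polr3e, a subunit of RNA polymerase III, followed with 0.826 and 0.764, Mthfd1l, an enzyme of mitochondrial folate metabolism, with 0.806 and 0.755, and then Rsad1 (0.748 and 0.740) and Slc7a5 (0.737 and 0.747), a carrier of large neutral amino acids. On the negative side were Cldn5, the claudin of brain endothelial tight junctions (-0.858 and -0.876), Tmem45a (-0.855 and -0.926), Cnpy4 (-0.813 and -0.803), the membrane metalloproteinase Mmp14 (-0.843 and -0.784) and Pdia3, a disulfide isomerase of the endoplasmic reticulum (-0.776 and -0.810). Of the 27 other pathway genes, Bhlhe41 and Bhlhe40 were at rank 37 and 38 of the positive side and Nfil3 at rank 93 of the negative side. Cipc was at 209 of the positive side and Rorb at 451 of the negative side. The rest were far lower, such as Btrc (1322), Usp2 (2444), Npas2 (2832) and Hlf (3019) on the positive and Timeless (1829) on the negative side, or unranked because their signs differed between the sexes.

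Dbp and Nr1d1 each overlap a gene on the opposite strand whose counts could take or give reads. Nr1d1 shares 1075 bases with Thra, a thyroid hormone receptor gene, and Dbp shares 689 bases with Sphk2, a sphingosine kinase gene. In females Thra had a Log2FC of -0.19 (adjusted p = 0.00703) and Sphk2 one of 0.20 (adjusted p = 0.0327), both called by edgeR. Deviations of Thra had an r of 0.0132 with those of Nr1d1 in females and -0.0378 in males, and Sphk2 had an r of -0.227 and -0.274 with Dbp. Whether the counting used strand is not given in the sources used here, and the part of shared reads in the Log2FC was not tested.

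Some marker genes of other cells were called in females, beside 3.89% of all genes. Astrocyte markers had negative Log2FC for 5 of 5 genes, 2 of them called, with summed levels of 1394 to 1963 CPM in SI and 1729 to 2239 CPM in GH females. Endothelial markers, Cldn5 among them, had positive Log2FC for 5 of 5, 1 of them called, with sums of 160 to 198 and 131 to 160 CPM. Of 7 glucocorticoid response genes 2 were called, and the sums were 449 to 615 CPM in SI and 523 to 737 CPM in GH females. Choroid plexus markers had positive Log2FC for 8 of 8, with sums of 1578 to 4054 and 875 to 4974 CPM. Of these 8, 0 were called and 2 were at an unadjusted p under 0.05, beside 20.2% of all genes. Hippocampal neuron markers had positive Log2FC for 6 of 6, with 0 called and 3 at that level, and sums of 491 to 758 and 484 to 632 CPM. Oligodendrocyte and microglia markers had positive Log2FC for 0 of 5 genes each, with 0 called and 1 at that level in each list. The part of these in the female Log2FC of Dbp, Nr1d1 and Arntl was not tested.

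In males, 0 marker genes of any list were called. Immediate early genes, which follow neuronal activity, had positive Log2FC for 0 of 9, with a median of -0.378 and 6 of 9 at an unadjusted p under 0.05, beside 13.0% of all genes, and sums of 204 to 514 CPM in SI and 270 to 607 CPM in GH males. Thalamus markers had positive Log2FC for 5 of 5, with a median of 0.476 and 3 of 5 at that level, and sums of 77.5 to 171 and 75.3 to 97.6 CPM. Rora is in this list and also among the other clock pathway genes tested above, so the lists are not separate. The part of these marker lists in the male Log2FC of the clock genes was not tested.

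Over 18 relations of Dbp, Arntl and Nr1d1 with 6 measures of each library in the 12 males, the mean log2 CPM of 8 choroid plexus markers had an r of 0.628 with Dbp (permutation p = 0.0332; rho 0.517, permutation p = 0.0704) and -0.581 with Arntl (permutation p = 0.0488; rho -0.483, permutation p = 0.112). Without the 2 farthest mice these were 0.536 and -0.489, and with Nr1d1 r was 0.423 (permutation p = 0.237; rho 0.469, permutation p = 0.19). The smallest p adjusted by Benjamini-Hochberg over these 18 relations was 0.220, by permutation. In all 15 males these r were 0.690 with Dbp and -0.606 with Arntl. Summed choroid plexus levels ran from 39.3 to 4171 CPM in SI and from 40.7 to 2242 CPM in GH males, and 1 of the 8 markers was at 0 in a mouse. In females the same r were -0.197 with Dbp and 0.279 with Arntl. The first principal component had an r of 0.565 with Arntl in the 12 males (permutation p = 0.0429; rho 0.706, permutation p = 0.0152; 0.460 without the 2 farthest) and 0.862 in all 15 (permutation p = 0.00016; rho 0.893, permutation p = 0.00014; 0.785 without the 2 farthest). The mean of the glucocorticoid response genes had an r of -0.753 with Arntl in the 12 males (permutation p = 0.016; rho -0.441, permutation p = 0.175; -0.342 without the 2 farthest) and -0.70 in all 15 (permutation p = 0.00118; rho -0.632, permutation p = 0.014; -0.664 without the 2 farthest). In all 15 males, permutation p adjusted over the 18 relations were 0.00288 for Arntl with the first principal component and 0.0106 for Arntl with the glucocorticoid response genes. For Dbp with the choroid plexus markers it was 0.043, and for the other relations at least 0.0875. The part of these measures, and of the hour of death, in the co-variation was not tested.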

How the data were processed

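The authors trimmed paired-end reads of poly(A)-selected hippocampal RNA with Trimmomatic 0.39 and quantified them with Salmon 1.8.0. They deposited estimated counts per gene and mouse as whole numbers, without normalization, in 1 table of 17477 Ensembl genes with row totals of at least 100. The submitters' processing notes name GRCm39. Symbols were matched for 16439 genes (94.1%), and gene coordinates and lengths are those of GENCODE vM1 on NCBIM37, a different build from that of the counts and of the RefSeq promoter windows.

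The counts were tested within each sex with edgeR 4.0.16 in R 4.3.3 (filterByExpr at a minimum count of 10, TMM, quasi-likelihood test, Benjamini-Hochberg adjustment over all genes tested). Surrogate variables from svaseq of sva 3.50.0 were covariates, 3 in females, 2 in males and 4 in the fit of all mice. Slopes on Dbp used housing and the centred log2 CPM of Dbp (prior count 2). Correlations used deviations from housing-group means, with 100000 permutations within housing groups, two-sided. Alternatives included DESeq2 1.42.0 and limma-voom (limma 3.58.1). The steps were tested on simulated data. Each mouse is 1 library, so p-values measure the spread between mice. In the tests of housing this is the spread left after the surrogate variables. For Per1 in females, the SE was 0.0600 with them and 0.112 without. GH mice shared cages that are not given, so cage was not in the fits and GH mice may not be independent.

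The clock genes and all other lists were chosen with earlier results of these data known. All clock genes are named, and of the 27 other pathway genes the one with the smallest p per sub-list and sex. The 5 genes most alike at each end were also named. Ciart, Bhlhe41, Thra, Sphk2 and the genes called on Dbp were named after their values were seen.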

Additional observations from a re-analysis of the deposited data

How the results depend on the processing

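No clock gene was called between SI and GH in either sex under most settings. In females the count went from 0 to 2 (Per1, Dbp) with at least 10 counts in every sample and to 1 (Arntl) with limma-voom, and it ranged from 0 to 2 with 1 mouse left out. In males it ranged from 0 to 1 with 1 mouse left out. The count of the other 27 pathway genes in females was 1 with 1 surrogate variable, with DESeq2 without surrogate variables, with all 4 groups in 1 fit and with no filter, and 3 with DESeq2 with surrogate variables, with at least 10 counts and with the length and GC trend removed. It ranged from 0 to 3 with 1 mouse left out. In males it was 2 with DESeq2 without surrogate variables and ranged from 0 to 9, the 9 without SI 27. Clock genes called on Dbp in females numbered 1 with DESeq2, 1 with no filter and 2 with surrogate variables added, and ranged from 0 to 1 with 1 mouse left out, while in males there was 1 with DESeq2. The shares of all genes called on Dbp under these settings are not given here. Over all genes, female calls ranged from 0 to 1519 across settings and from 88 to 1373 with 1 mouse left out, beside 624. Male calls ranged from 0 to 304 across settings and from 0 to 2414 with 1 mouse left out, beside 0. The paper did report differentially expressed genes in males with its own processing, so the male count of 0 depends on the processing.

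Several values near 0 changed sign. In females the Log2FC of Per2 was -0.068 with 1 surrogate variable, -0.041 without surrogate variables by edgeR, -0.045 by DESeq2, -0.026 with at least 10 counts, -0.030 with limma-voom and -0.036 with the position digit, a digit in the sample titles, as a factor. That of Cry1 was -0.0079 with the position digit, that of Timeless -0.00050 with at least 10 counts, and that of Usp2 0.033 with 1 surrogate variable, 0.041 without them by edgeR, 0.037 by DESeq2 and 0.071 with the digit. In males, with all 4 groups in 1 fit, Per3 was at 0.068, Clock at 0.0024, Nr1d1 at -0.064 and Dbp at -0.10. With the length and GC trend removed, Per3 was at 0.0050, Nfil3 at -0.049 and Hlf at 0.0075. With limma-voom, Per3 was at 0.016 and Nr1d1 at -0.040. Without surrogate variables, Arntl was at -0.075 and Nr1d1 at -0.050 by edgeR, and at -0.066 and -0.039 by DESeq2. With the digit, Arntl was at -0.056 and Nr1d1 at -0.12, and with 1 surrogate variable Dbp was at -0.012. Without SI 25, 33 and 39, Per3 was at 0.023, Cry2 at 0.015, Nfil3 at -0.027 and Fbxl21 at 0.028. With all 15 males, slopes on Dbp were -0.36 for Per2, -0.081 for Per3, -0.15 for Cry1 and -0.13 for Cry2, and the median r of Arntl with the 6 targets was 0.179; with surrogate variables added, the slope of Cry1 was -0.013. The cause was not tested.

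With 1 mouse left out, female Log2FC ranged from -0.087 to 0.0383 for Per2, -0.0225 to 0.107 for Clock, -0.013 to 0.088 for Timeless and -0.106 to 0.0892 for Usp2. In males they ranged from -0.154 to 0.0662 for Per3, -0.112 to 0.0066 for Cry2, -0.055 to 0.0492 for Nfil3 and -0.262 to 0.129 for Fbxl21, and slopes on Dbp from -0.0955 to 0.162 for Per2, -0.0251 to 0.224 for Per3 and -0.0956 to 0.0931 for Cry1. Of 483 Log2FC and slopes under settings that kept all mice of the fit, 429 kept their direction and their side of the threshold, as did 785 of 837 with 1 mouse left out. The position digit left too few mice per group and digit for values within a digit.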
